A study of Rattus norvegicus with 63 samples.

Results

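The glutamate receptors and the postsynaptic scaffold that holds them were followed in rats that worked for amphetamine, methamphetamine, methylphenidate or saline, in 2 brain regions, the prefrontal cortex (PFC) and the striatum. The members are 35 genes given by symbol, chosen by function and not by their values. Each gene was taken as its brightest probe set by mean log2 signal among probe sets annotated with 1 gene symbol. All 35 were found among the 14218 genes of the array. Fits left out the dimmest 40% of genes, so 25 members were tested in the PFC, 25 in the striatum and 26 where both regions were fitted together.

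Glutamate carries fast excitation through AMPA, NMDA and kainate receptors, which are ion channels, and slower signals through metabotropic receptors, which act through G proteins. Under the membrane, guanylate kinases of the PSD-95 family bind the receptors, the SAPAP protein Dlgap1 links them to Shank, and Homer ties Shank to metabotropic receptors, with the kinase CaMKII as the main calcium sensor. In the striatum, cortical glutamate meets dopamine on projection neurons, and the balance of these receptors there and in the cortex has long been studied in relation to psychostimulants.

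All animals were male Wistar rats, 4 weeks old on arrival and 6 weeks old when injections began. In the drug-naive cohort rats were injected with saline for 7 days, 2 times daily, and were then conditioned for place preference with saline, with amphetamine or methamphetamine at 1.25 or 5 mg/kg, or with methylphenidate at 5 mg/kg, and then self-administered the same agent. In the drug-pretreated cohort rats received amphetamine, methamphetamine or methylphenidate at 5 mg/kg for those 7 days before conditioning with the same drug at 5 mg/kg and self-administration, beside a group of its own given saline throughout. Infusions were 0.1 mg/kg for amphetamine and methamphetamine, 0.25 mg in 0.1 ml for methylphenidate, and 0.1 ml of saline for controls, so that methylphenidate is matched in conditioning dose only. There were 63 arrays of 31099 probe sets, 31 from PFC and 32 from striatum, in 20 groups of 2 to 5. The labels do not say for each array whether it holds 1 animal or a pool, so p-values measure the spread between these arrays, which may in part be technical.

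Replicates of a group correlated at 0.931 to 0.958 over 72 pairs, and no pair was identical. Means of 9 genes of striatal projection neurons lay at 12.1 to 12.9 log2 units in striatal arrays and at 8.22 to 9.78 in PFC arrays, with 1 exception. The array labelled naive striatum, methamphetamine 1.25 mg/kg, replicate 1, read 9.27 for these genes and 9.08 for 7 genes of cortical excitatory neurons, which read 5.25 to 7.68 in the other striatal arrays. It was kept as labelled, and results that rest on it are given with and without it. For naive striatum, saline, replicate 1, the labels disagree, since 1 field names PFC while the title and the tissue name striatum. Its striatal genes read 12.8 and its cortical genes 6.18, within the range of the other striatal arrays. Naive arrays fell into 2 sets by the signal of the BioB spike-in control, 23 arrays at 9.35 to 10.6 (set A) and 16 at 5.96 to 6.68 (set B). Set A holds saline replicates 1 to 3, both methamphetamine doses and amphetamine at 1.25 mg/kg, and set B holds saline replicates 4 and 5, amphetamine at 5 mg/kg and methylphenidate.

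Members near background were named first, since their differences carry little weight. Of the 35 genes, 8 lay under the filter in both regions. They are Grin2d and Grin3a, the NMDA receptor subunits GluN2D and GluN3A, Grik1 and Grik3 among kainate receptors, Grm7, a presynaptic metabotropic receptor, Dlgap2, Homer2 and Homer3. Grik3 was the dimmest, at a mean of 3.10 in PFC and 2.87 in striatum with single arrays between 0.24 and 5.35. Grik4 and Grm2 passed in PFC only, at 7.91 against 7.5 and 7.91 against 5.73 (PFC against striatum), and Grm4 and Dlg2 passed in striatum only, at 8.32 against 7.55 and 8.06 against 7.32. No member value lay at the floor of the scale. These levels belong to single probe sets and are not compared between genes.

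Promoter sequences are shown for the 2 members of largest regional difference in each direction, among those called and with an entry in the RefSeq table of the GRCr8 build, which holds 22 of the 35. Each is the 250 bases before the gene's start, on the gene's own strand. Dlgap1 lies at chr9:117613834-117614083 (plus strand), Grik4 at chr8:52102064-52102313 (minus), Shank3 at chr7:122448073-122448322 (plus) and Grik2 at chr20:54415284-54415533 (minus). The first pair was lower and the second pair higher in striatum. Capitals mark the core of the cyclic AMP response element, the site that the factor CREB reads.
Dlgap1: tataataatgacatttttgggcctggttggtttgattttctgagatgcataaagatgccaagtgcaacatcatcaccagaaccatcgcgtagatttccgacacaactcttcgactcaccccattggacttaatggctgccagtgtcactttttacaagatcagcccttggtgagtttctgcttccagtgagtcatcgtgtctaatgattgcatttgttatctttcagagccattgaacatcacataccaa
Grik4: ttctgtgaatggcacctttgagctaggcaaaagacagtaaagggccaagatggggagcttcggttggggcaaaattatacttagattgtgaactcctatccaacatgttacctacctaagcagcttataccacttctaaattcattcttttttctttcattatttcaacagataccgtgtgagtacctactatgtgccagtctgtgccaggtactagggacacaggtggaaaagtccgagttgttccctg
Shank3: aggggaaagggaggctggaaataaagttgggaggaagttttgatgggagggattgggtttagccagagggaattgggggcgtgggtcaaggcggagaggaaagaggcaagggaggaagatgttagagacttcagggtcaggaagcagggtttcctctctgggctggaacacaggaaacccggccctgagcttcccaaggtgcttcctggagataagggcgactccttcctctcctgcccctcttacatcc
Grik2: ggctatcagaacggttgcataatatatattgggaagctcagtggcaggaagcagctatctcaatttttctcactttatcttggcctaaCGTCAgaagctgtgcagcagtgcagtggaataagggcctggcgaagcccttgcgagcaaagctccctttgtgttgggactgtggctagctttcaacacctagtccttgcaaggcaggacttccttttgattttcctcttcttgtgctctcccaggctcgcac
This core, TGACG, read on both strands (CGTCA), was found in the Grik2 promoter and in 3 of the 22 member promoters, 13.6%, against 18.2% of 33469 rat promoters of the same length. The GC box GGGCGG, read on both strands, was in 4 members, 18.2%, against 30.5% of all. The TATA box TATAAA, read likewise, was in 1, 4.55%, against 12.9%. The median GC content was 58.6% in members and 51.2% over all promoters. These matches describe the letters in a window and are no evidence of binding.

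The comparison of the regions in saline rats asked where each member is expressed, before any drug. In naive saline rats, 18 of the 26 tested members differed between striatum and PFC, 8 higher and 10 lower in striatum, where 40.4% of all 8530 tested genes differed (21.2% higher, 19.2% lower). The median difference was 0.105 over the tested members and 0.0276 over all genes, so the members parted in both directions. In the pretreated cohort's saline rats 14 members differed, 7 in each direction, against 27% of all genes (13% higher, 14% lower). All 14 were among the 18 of the naive cohort and had the same sign. Within array set A alone, with 3 saline arrays a region, 10 of 24 tested members were called in naive rats, against 22% of all genes. The difference between the cohorts was called for 0 of 26 members and for 0 of all genes in limma after Benjamini-Hochberg adjustment. At an unadjusted p under 0.05 there were 5 members, and the share of all genes at that threshold is not given. In these whole-tissue samples fewer cells of a type and less RNA per cell cannot be told apart.

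**Figure D1:**
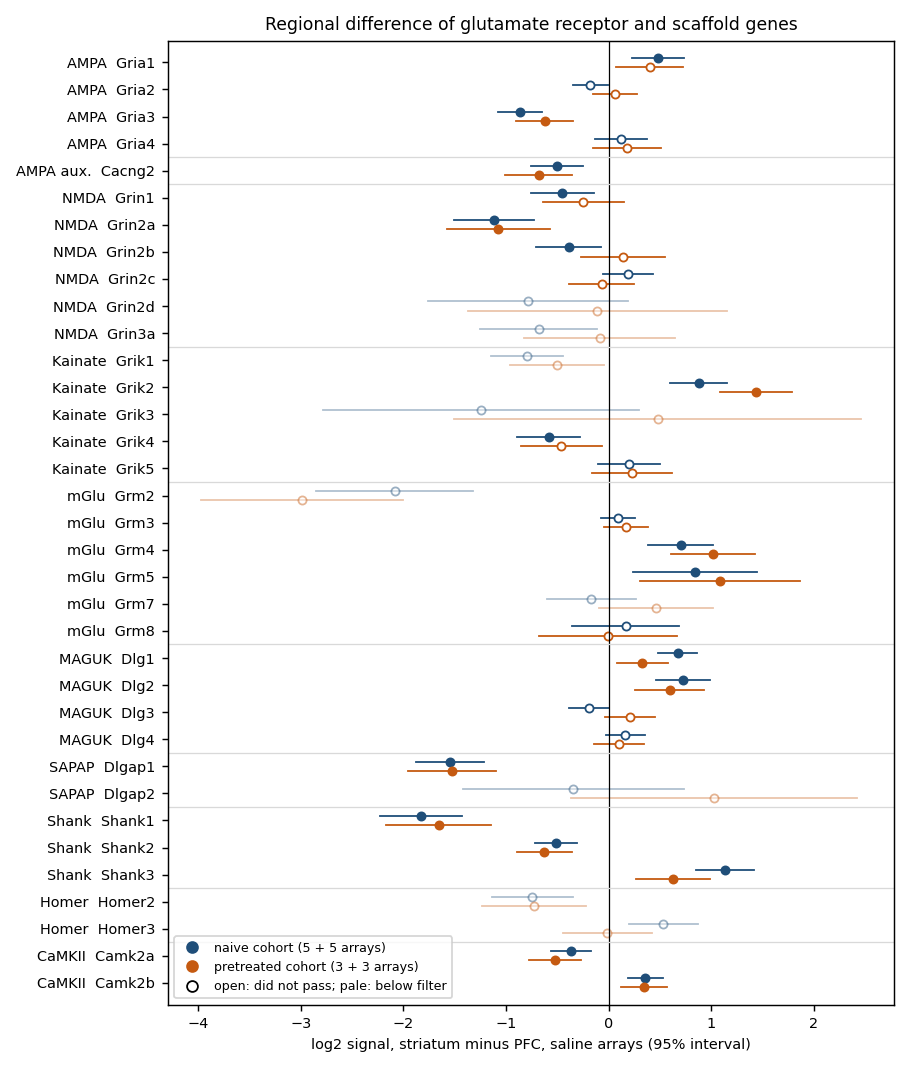
Striatum minus PFC difference in log2 signal in saline rats for each of the 35 members, by receptor class, with 95% confidence intervals from limma, for the naive cohort (5 arrays a region) and the pretreated cohort (3 a region); filled points passed the test and faint ones lie under the filter. Among tested members Shank1 and Dlgap1 lie farthest below 0.

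Among AMPA receptor subunits, the main carriers of fast excitation, Gria3 (GluA3) was lower in striatum. Its saline values in the naive cohort were 12.44, 12.87, 12.83, 12.59 and 12.75 in PFC and 11.89, 11.93, 11.84, 11.62 and 11.85 in striatum. Every striatal array lay under every PFC array. The difference was -0.87 ± 0.11 (SE; limma, adjusted p = 2.84e-09) in the naive cohort and -0.62 in the pretreated one (adjusted p = 3.83e-04). Gria1 (GluA1) went the other way, with 9.72, 10.19, 9.96, 10.30 and 10.62 in PFC and 10.31, 10.74, 10.59, 10.70 and 10.83 in striatum. Here the groups overlapped, since PFC replicate 5 was above striatal replicates 1 and 3. The difference was 0.48 ± 0.13 (adjusted p = 0.00195) in naive rats. In pretreated rats it was 0.40 and not called (adjusted p = 0.0626). With arrays of the same number in PFC and striatum paired as a block the adjusted p there was 0.0107, but that pairing is an assumption. Gria2, the subunit that sets calcium permeability, differed by -0.18 (adjusted p = 0.0834, or 0.0422 with those pairs as a block) and Gria4 by 0.12 (adjusted p = 0.476), and neither was called in either cohort without the block. Cacng2 (stargazin), which carries AMPA receptors to the synapse, was lower in striatum, at -0.50 ± 0.13 (adjusted p = 0.00111) and at -0.68 in pretreated rats.

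NMDA receptors need a GluN1 subunit with GluN2 partners, and 3 of the 4 tested subunits were lower in striatum. Grin2a, the subunit GluN2A that rises as cortical synapses mature, read 9.18, 9.80, 9.96, 9.88 and 10.67 in naive PFC and 8.78, 8.87, 8.46, 8.82 and 8.97 in striatum. The PFC arrays spread over more than 1 log2 unit, yet the groups did not overlap. The difference was -1.12 ± 0.19 (adjusted p = 5.16e-06), a 2.17-fold lower signal, and in pretreated rats it was -1.07 ± 0.25 (adjusted p = 7.68e-04). Grin1, the obligatory GluN1, was lower, at -0.45 ± 0.15 (adjusted p = 0.0155) and Grin2b, GluN2B, at -0.39 ± 0.16 (adjusted p = 0.0454). Both passed in naive rats and missed in pretreated rats, where the striatal values of Grin2b, 9.43, 9.52 and 9.27, overlapped the PFC values of 8.94, 9.39 and 9.48 and the difference was 0.14 (adjusted p = 0.672). The naive call of Grin2b was lost without a filter (adjusted p = 0.0598), on the arrays of the cohort alone (0.0648), with the replicate number as a block across all groups (0.051) and within array set A (0.22) or B (0.254), and was kept with PFC and striatum paired (0.0369). Grin2c did not pass in either cohort, with a naive difference of 0.19 (adjusted p = 0.216). Grin1 also depended on the probe set, since its other one differed by 0.37 in the opposite direction.

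Kainate receptor subunits split by gene. Grik2 (GluK2), the main low-affinity subunit, read 8.71, 9.07, 9.14, 9.0 and 8.80 in naive PFC and 9.84, 10.01, 9.73, 9.62 and 9.90 in striatum. The groups were apart by about the width of each. Striatal signal was higher by 0.88 ± 0.14 (adjusted p = 6.28e-07, 1.84-fold) in naive rats and by 1.44 ± 0.18 (adjusted p = 1.12e-08, 2.71-fold) in pretreated rats. Grik4 (GluK4), a high-affinity partner, was lower, at -0.59 ± 0.15 (adjusted p = 0.00161) in naive rats, and not called in pretreated ones. Grik5 (GluK5) differed by 0.20 (adjusted p = 0.292). Grik1, which was too dim for the filter, differed by -0.80 (adjusted p = 3.40e-04 in the fit without a filter).

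**Figure D2:**
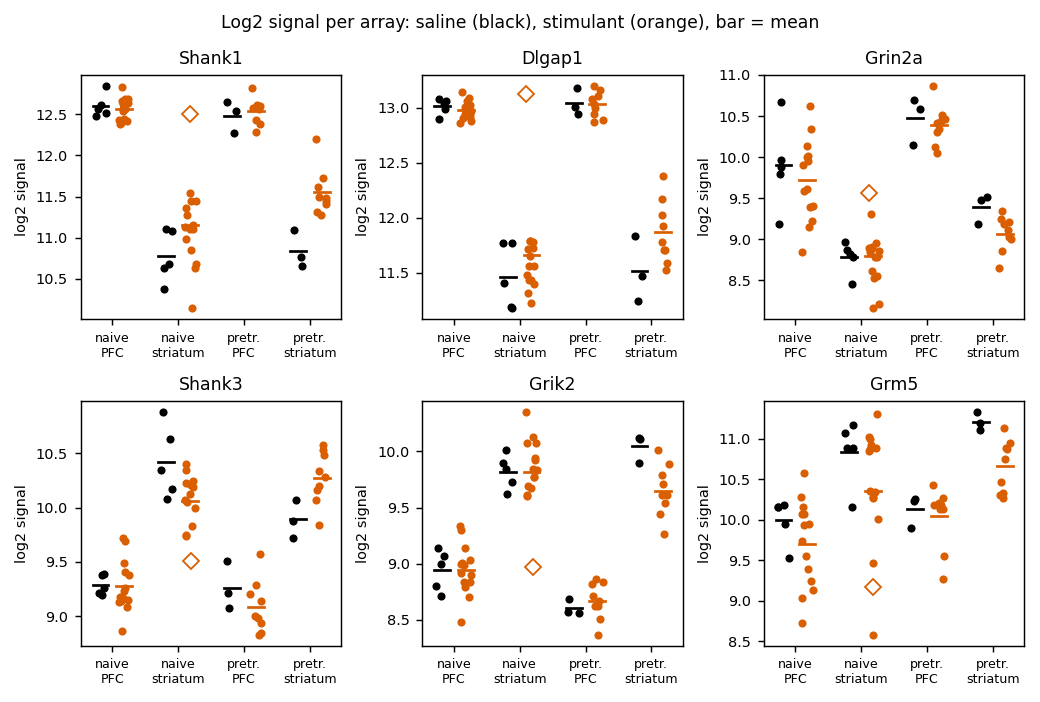
Log2 signal of every array for Shank1, Dlgap1, Grin2a, Shank3, Grik2 and Grm5 by cohort and region, with saline arrays in black, stimulant arrays in orange, bars at the means, and an open diamond for the striatal array of cortical profile. Saline arrays of striatum lie under those of PFC for Shank1, Dlgap1 and Grin2a and above them for Shank3 and Grik2.

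Among the tested metabotropic receptors Grm5 and Grm4 were called, both higher in striatum. Grm2, under the filter, was lower there, and Grm8 depended on its probe set, as given below. Grm5 (mGluR5), which couples to calcium release and binds Homer, read 9.53, 9.95, 10.18, 10.16 and 10.16 in naive PFC and 10.89, 10.88, 10.16, 11.07 and 11.17 in striatum. Striatal replicate 3 alone fell among the PFC values, and the other 4 were above all of them. The difference was 0.84 ± 0.30 (adjusted p = 0.0219), and in pretreated rats, at 9.90, 10.25 and 10.23 against 11.33, 11.11 and 11.19, the groups did not overlap (adjusted p = 0.0317). Grm4 (mGluR4), a presynaptic receptor that lowers release, was higher in striatum by 0.70 ± 0.16 (adjusted p = 2.82e-04) and by 1.02 in pretreated rats. Grm3, a receptor of neurons and astrocytes, did not pass, at 0.09 (adjusted p = 0.387), although its group means were higher in striatum in all 10 pairs of matched groups.

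Grm2 (mGluR2), the presynaptic autoreceptor of cortical terminals, was too dim in striatum to be in the regional test, so the size of its difference is uncertain. It read 7.18, 8.38, 7.99, 8.37 and 8.26 in naive PFC and 5.72, 5.42, 5.83, 6.18 and 6.58 in striatum. Pretreated saline arrays read 7.96, 7.94 and 7.81 against 4.68, 5.14 and 4.91. In the fit without a filter it differed by -2.09 (adjusted p = 1.71e-05) in naive rats and at -2.99 (adjusted p = 5.45e-06) in pretreated rats. Grm8 depended on its probe set: the brightest differed by 0.16 and was not called, while the 2 dimmer ones were -2.06 (adjusted p = 4.43e-08 over all probe sets) and -1.21 (adjusted p = 5.09e-04). Over all members, 24 of 31 further probe sets had the sign of the chosen one, and in 0 cases were both called in opposite directions.

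The scaffold held the widest regional gaps among tested members. Shank1, the large scaffold of mature spines, read 12.61, 12.85, 12.48, 12.52 and 12.56 in naive PFC and 10.38, 10.68, 10.63, 11.10 and 11.08 in striatum. The nearest arrays of the regions were more than 1 log2 unit apart. The difference was -1.83 ± 0.20 (adjusted p = 9.01e-11), or 3.56-fold, and 83 of the tested genes were further below PFC. In pretreated rats it was -1.65 ± 0.25 (adjusted p = 1.13e-06), or 3.15-fold.

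Dlgap1, the SAPAP protein under PSD-95, read 12.99, 13.06, 12.90, 13.08 and 13.04 in naive PFC and 11.19, 11.41, 11.18, 11.77 and 11.77 in striatum. The PFC values were tight, and the striatal values fell into a lower trio of set A and a higher pair of set B. The difference was -1.55 ± 0.16 (adjusted p = 6.08e-11, 2.93-fold) in naive and -1.53 ± 0.21 (adjusted p = 1.51e-07, 2.88-fold) in pretreated rats. All 4 Dlgap1 probe sets were lower in striatum, at -1.26 to -1.84.

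Shank paralogs differed in direction. Shank3, the paralog known for its role in striatal synapses, read 9.19, 9.39, 9.38, 9.21 and 9.26 in naive PFC and 10.63, 10.88, 10.35, 10.17 and 10.08 in striatum. It was higher in striatum by 1.13 ± 0.14 (adjusted p = 2.99e-09, 2.2-fold), with 174 genes further above, and by 0.63 ± 0.18 (adjusted p = 0.00642) in pretreated rats. Shank2 was lower, at -0.51 ± 0.10 (adjusted p = 4.93e-05) and at -0.63 in the pretreated cohort. Thus in both cohorts Shank1 and Shank2 were lower and Shank3 higher in striatum.

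Among the guanylate kinases, which anchor receptors at the density, Dlg1 (SAP97) and Dlg2 (PSD-93) were higher in striatum. Dlg1 read 11.04, 11.21, 10.96, 11.15 and 11.17 in naive PFC and 11.52, 11.80, 11.69, 12.07 and 11.81 in striatum, with no overlap. It differed by 0.67 ± 0.10 (adjusted p = 8.81e-08) in naive and by 0.33 (adjusted p = 0.0415) in pretreated rats. Dlg2 differed by 0.72 ± 0.13 (adjusted p = 9.15e-06) and by 0.60. Dlg3 (SAP102) and Dlg4 (PSD-95) were not called, at -0.19 (adjusted p = 0.107) and 0.16 (adjusted p = 0.164).

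The CaMKII subunits differed in opposite directions. Camk2a, the alpha subunit of excitatory synapses, was lower in striatum, at -0.37 ± 0.10 (adjusted p = 0.00182) and at -0.52 in pretreated rats. Camk2b, the actin-binding beta subunit, was higher by 0.35 ± 0.08 (adjusted p = 6.52e-04) and by 0.34. Of the Homer adaptors, both dim, Homer2 differed by -0.74 (adjusted p = 0.00242 without a filter) and Homer3 by 0.53 (adjusted p = 0.0129).

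The direction of the regional contrast was followed into the 8 stimulant groups of each region, together with the 2 saline groups. Group means of Gria3, Cacng2, Grin2a, Grik1, Grik4, Grm2, Dlgap1, Shank1, Shank2, Homer2 and Camk2a were lower in striatum in all 10 pairs of groups. Those of Gria1, Grik2, Grm3, Grm4, Grm5, Dlg1, Dlg2, Dlg4, Shank3 and Camk2b were higher in all 10. The gap ranged from -0.79 to -1.83 for Shank1, from -0.93 to -1.60 for Dlgap1 and from 0.39 to 1.38 for Shank3. Over all arrays of each region, every member overlapped when the striatal array of cortical profile was kept. That array read 12.50 for Shank1 and 13.12 for Dlgap1, inside the PFC range, and 10.89 for Dlg1, just below the lowest PFC array at 10.96, and without it these 3 members no longer overlapped.

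A list of 53 further genes of the glutamate synapse gives the setting. Of its 45 genes on the array, 30 were tested between regions, and in naive saline rats 7 were higher and 11 lower in striatum (40.4% of all genes called). Higher were the PSD-95 partners Akap5 (1.42) and Dlgap3 (1.02), and lower were the cortical vesicular transporter Slc17a7 (-3.54) and the kinase subunits Camk2d (-1.08) and Camk2g (-0.99). In pretreated rats 8 were higher and 7 lower, against 27% of all genes (13% higher, 14% lower).

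The mean of the stimulant groups against saline asked whether the stimulants moved these genes. Saline rats also self-administered their agent, so this comparison cannot show an effect of self-administration as such. No member was called in either region or cohort. The same comparison called 5 genes in naive PFC (0.0586%), 6 in pretreated PFC (0.0703%), 8 in naive striatum (0.0938%) and 31 in pretreated striatum (0.363%). At an unadjusted p under 0.05 there were 2, 2, 4 and 8 of 25 members, against 8.73%, 5.45%, 11.5% and 16.2% of all genes. The median difference of the tested members was -0.06 in naive and -0.06 in pretreated PFC, and -0.02 and -0.07 in striatum, beside medians over all genes of -0.0124 to 0.00253. The typical standard error of a member was 0.0872 to 0.148 log2 units across the 4 comparisons.

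**Figure D3:**
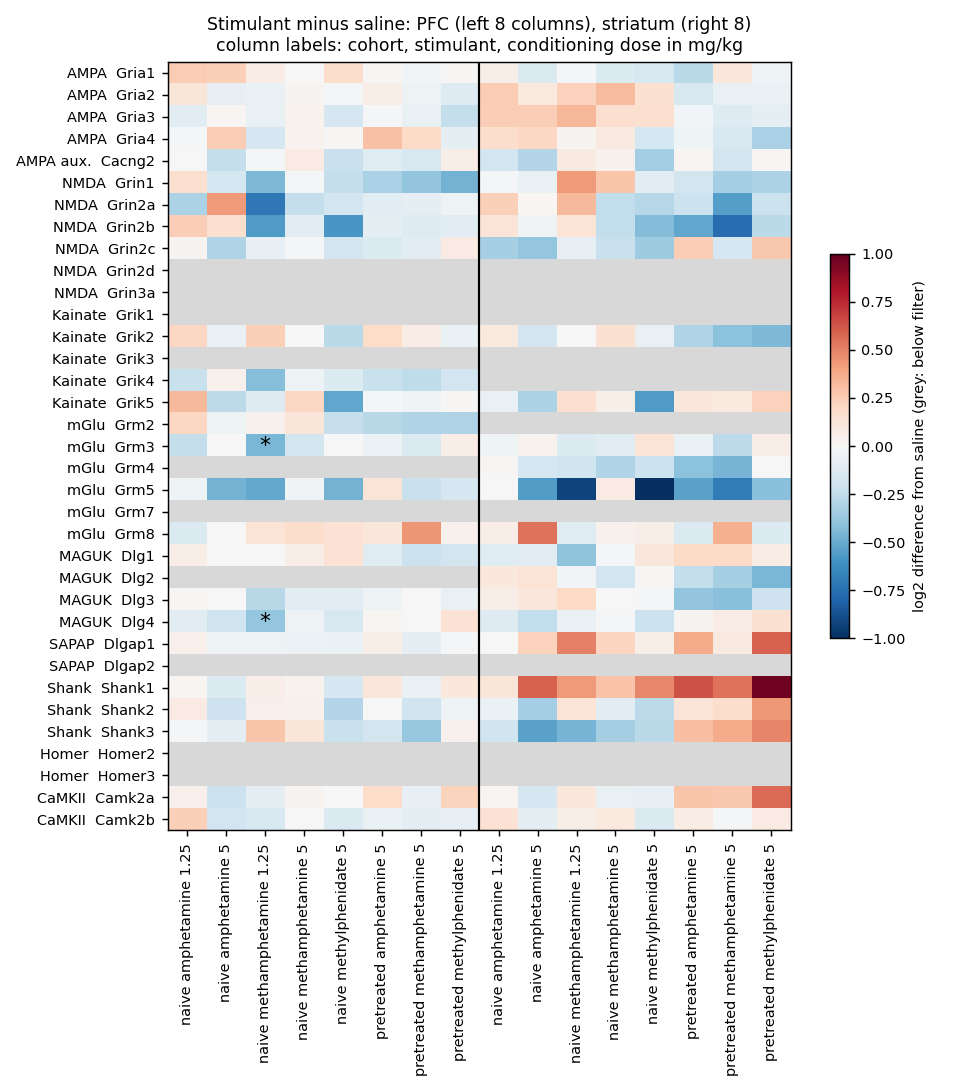
Log2 difference from saline of the same cohort and region for each member (rows, by class) in each of 16 stimulant groups (columns), with members under the filter in grey and a star on adjusted p-values under 0.05. Of the tested members, Grm3 and Dlg4 in naive PFC with methamphetamine at 1.25 mg/kg are the called differences.

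In naive PFC the smallest p belonged to Grm3, at a mean of 11.52 in the stimulant groups and 11.69 in saline (-0.17 ± 0.06, limma adjusted p = 0.403). Dlg4 followed at -0.18 (adjusted p = 0.524). In pretreated PFC, Grin1 read 9.95, 9.65 and 9.78 in saline and 9.02, 9.64 and 9.74 with amphetamine, 9.15, 9.48 and 9.56 with methamphetamine, and 9.21, 9.22 and 9.52 with methylphenidate. All 9 stimulant arrays were below the saline mean, but the groups overlapped and the difference of -0.40 ± 0.16 was not called (adjusted p = 0.714). Dlg1 was also below its saline mean in all 9 arrays, at -0.17 (adjusted p = 0.787).

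In naive striatum, 4 tested members leaned one way in 13 to 15 of the 15 stimulant arrays, without passing. Gria3 was above its saline mean in 15 of 15 (0.23 ± 0.08, adjusted p = 0.246). Gria2 was above in 13 of 15 (0.21 ± 0.07, adjusted p = 0.229). Shank3 was below in 15 of 15, between 9.51 and 10.40 against saline arrays of 10.08 to 10.88 (-0.36 ± 0.13, adjusted p = 0.248). Grin2c was below in 14 of 15 (-0.28, adjusted p = 0.298), and Grm5 differed by -0.48 (adjusted p = 0.486). The highest Gria3 and the lowest Shank3 value were those of the array of cortical profile. Without it the differences were 0.20 (adjusted p = 0.229) and -0.32 (adjusted p = 0.242). The saline means pool both array sets, and Shank3 in saline read 10.35 to 10.88 in set A and 10.08 to 10.17 in set B. In set B it read 10.19, 10.05 and 10.23 after methylphenidate and 10.07, 9.75 and 9.83 after amphetamine. Across the settings tried, Shank3 ran from -0.56 to -0.10 and Grin2c from -0.45 to -0.11. Gria2 ran from 0.04 to 0.32 and Gria3 from 0.17 to 0.29.

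The pretreated striatum held the members nearest to the threshold. Shank1 read 10.76, 11.09 and 10.65 in saline, 11.62, 11.31 and 11.48 after amphetamine, 11.41, 11.44 and 11.28 after methamphetamine, and 11.49, 12.20 and 11.73 after methylphenidate. All 9 stimulant arrays were above all 3 saline arrays. The mean difference of 0.72 was not called with the array of cortical profile in the fit (SE 0.27, adjusted p = 0.190), although that array belongs to the other cohort and enters only through the shared variance. Without it the SE was 0.17 and the adjusted p 0.0307, and the comparison called 163 genes, or 1.91%. Fitted on the pretreated striatal arrays alone the adjusted p was 0.0229.

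Camk2a read 13.03, 13.20 and 12.97 in saline, 13.54, 13.20 and 13.29 after amphetamine, 13.25, 13.42 and 13.35 after methamphetamine, and 13.64, 13.87 and 13.39 after methylphenidate. All 9 stimulant arrays were above all 3 saline arrays, amphetamine replicate 2 by less than the rounding shows. The difference was 0.37 ± 0.11 (adjusted p = 0.105, or 0.0529 without the array of cortical profile). With methylphenidate alone, and without that array, Shank1 rose by 0.97 ± 0.21 and Camk2a by 0.57 ± 0.13 (adjusted p = 0.0313 for both), in a comparison that then called 0.528% of genes. With that array the adjusted p-values were 0.244 and 0.115.

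Grin2b and Dlg3 lay on the other side. Grin2b read 9.43, 9.52 and 9.27 in saline, 8.81, 8.90 and 8.96 after amphetamine, 8.82, 8.58 and 8.53 after methamphetamine, and 9.04, 9.12 and 9.25 after methylphenidate. All 9 were below the lowest saline array, yet the difference of -0.52 ± 0.17 was not called (adjusted p = 0.125). On the pretreated striatal arrays alone the adjusted p was 0.0289. Dlg3 read 10.51, 10.48 and 10.56 in saline, and 8 of 9 stimulant arrays lay between 9.99 and 10.27 (-0.34 ± 0.10, adjusted p = 0.0872). The exception was methylphenidate replicate 3, at 10.58.

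**Figure D4:**
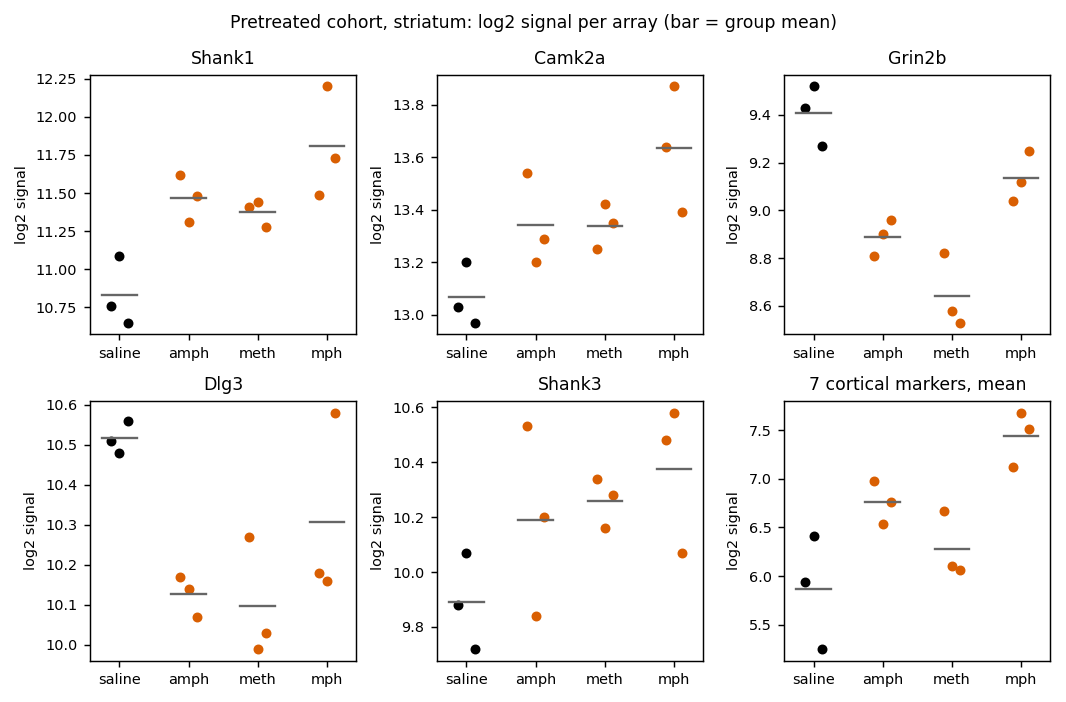
Log2 signal of each pretreated striatal array by treatment (3 arrays each, bars at the group means) for Shank1, Camk2a, Grin2b, Dlg3 and Shank3, with the mean of 7 cortical markers in the last panel. All 9 stimulant arrays lie above the saline arrays for Shank1 and below them for Grin2b.

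Shank1 and Camk2a were lower in striatum than in PFC in both cohorts. So were Dlgap1 and Shank2, above their saline means in 9 and 7 of the 9 stimulant arrays of pretreated striatum. Grin2a, Gria3 and Cacng2 were lower in striatum too, but lay below their saline means in 9, 8 and 6 of the 9. Markers of cortical neurons are given beside these values. The mean of the 7 cortical excitatory markers was 5.94, 6.41 and 5.25 in pretreated saline striatum, 6.98, 6.54 and 6.76 after amphetamine, 6.67, 6.10 and 6.06 after methamphetamine, and 7.12, 7.68 and 7.51 after methylphenidate. The 9 striatal markers ran from 12.5 to 12.7 after saline and from 12.1 to 12.4 after the stimulants. The 5 pan-neuronal markers read 11.19 to 11.25 after saline and 11.03 to 11.13 after amphetamine. They read 10.79 to 11.16 after methamphetamine and 10.94 to 11.36 after methylphenidate. The part of these markers in the values of Shank1, Camk2a, Grin2b and Dlg3 was not tested.

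Each stimulant and dose was then compared with saline, in 16 comparisons and 400 tests of members. Only methamphetamine at 1.25 mg/kg in naive PFC, a group of 2 arrays, called any, and both calls were lower: 2 of 25, against 11.1% of all genes in either direction and 6.33% lower. Grm3 read 11.67, 11.77, 11.60, 11.67 and 11.75 in saline and 11.46 and 11 after methamphetamine. Both arrays were below all saline arrays, but 0.46 apart from each other. Grm3 fell by 0.46 ± 0.10 (log2, limma adjusted p = 0.00775, or 0.0428 adjusted over all genes of the 16 comparisons). Amphetamine at 1.25 mg/kg gave 11.42, 11.45 and 11.50, also below saline and not called (adjusted p = 0.216). Leaving out single arrays moved the difference between -0.69 and -0.23, and the call was lost in 1 of 7 runs.

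Dlg4, the core scaffold protein PSD-95, read 11.28, 10.88, 10.69, 10.67 and 10.59 in saline and 10.51 and 10.36 after methamphetamine. It fell by 0.38 ± 0.12 (adjusted p = 0.0435), but over the family the adjusted p was 0.180, and leaving out single arrays lost the call in 4 of 7 runs. Grin2b was not called there (-0.56, adjusted p = 0.0651). In the same comparison 5 of 31 other glutamate synapse genes were called, Glul higher (0.41), and Slc17a7 (-0.80), Camk2g (-0.44), Slc1a2 (-0.43) and Dlgap4 (-0.35) lower. With the array set as a block Grm3 (-0.45, adjusted p = 0.0225) and Dlg4 (-0.51, adjusted p = 0.0232) were still called. Marker levels of the methamphetamine arrays did not all lie on one side of saline. At or below its low end were 6 interneuron markers, at 10.22 to 10.34 against 10.38 to 10.77 in saline. So were 3 thalamus markers (8.27 to 8.63 against 8.64 to 8.86). Other lists ran from below the saline range into it. These were 7 cortical markers (8.726 to 8.773 against 8.729 to 9.366) and 5 pan-neuronal markers (11.62 to 11.71 against 11.69 to 11.86). The same held for 4 endothelium markers (8.879 to 9.381 against 9.315 to 9.516) and 4 markers of oligodendrocyte precursors (6.663 to 7.442 against 7.258 to 7.608). So it did for 3 choroid plexus markers (4.693 to 6.118 against 4.78 to 6.175). The 2 blood markers reached above saline (9.555 to 10.35 against 5.469 to 10.23). Within the saline range were 5 astrocyte markers, near its top (12.46 to 12.61 against 12.1 to 12.61), and 5 microglia markers (8.684 to 8.965 against 8.364 to 9.235). Their part in Grm3 and Dlg4 was not tested. At 5 mg/kg of methamphetamine neither was called, and the difference between the doses was 0.28 for Grm3 (adjusted p = 0.241) and 0.33 for Dlg4 (adjusted p = 0.250).

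In the other 15 comparisons with saline, 0 members were called with all arrays. The share of all genes called was 0.492% and 0.0117% for amphetamine at 1.25 and 5 mg/kg in naive PFC, 0.0352% for methamphetamine at 5 mg/kg and 0% for methylphenidate. It was 0.0234%, 0.0117% and 0.0938% for amphetamine, methamphetamine and methylphenidate in pretreated PFC. In naive striatum it was 0.34% and 0% for the amphetamine doses, 0.188% and 0.328% for methamphetamine and 0.129% for methylphenidate, and in pretreated striatum 0%, 0.703% and 0.0821%. In most of these comparisons hardly any gene of the array passed. The member nearest to the threshold was Grin2b in pretreated striatum after methamphetamine (-0.76 ± 0.20, adjusted p = 0.0706). Dlg3 in that group differed by -0.42 (adjusted p = 0.0808). There, of the 30 other glutamate synapse genes, Glul, which makes glutamine from glutamate in astrocytes, rose by 0.50 (adjusted p = 0.0323), where 0.703% of all genes were called. In those arrays 5 astrocyte markers read 12.37 to 12.55 against 12.19 to 12.39 in saline, and 3 choroid plexus markers 7.31 to 7.72 against 6.19 to 6.96. There 5 pan-neuronal markers read 10.79 to 11.16, below the 11.19 to 11.25 of saline. Their part was not tested.

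The stimulants were compared with each other in 14 pairs at equal conditioning dose, with 350 tests of members and p-values also adjusted over the whole family. Methamphetamine is amphetamine with an added N-methyl group. In naive PFC at 1.25 mg/kg, 2 members were higher after amphetamine than after methamphetamine, where 6.26% of all genes differed, 3.69% in that direction. Grin2b read 9.57, 9.42 and 9.22 after amphetamine and 8.49 and 8.70 after methamphetamine, with no overlap, a difference of 0.81 ± 0.22 (95% interval 0.36 to 1.26, adjusted p = 0.0359). Camk2b read 12.88, 12.85 and 12.98 against 12.41 and 12.62, a difference of 0.39 ± 0.11 (adjusted p = 0.0412). The 9 striatal markers read 9.28 to 9.78 in the amphetamine arrays and 8.44 to 8.5 in the methamphetamine arrays, and 3 markers of thalamus read 9.0 to 9.19 and 8.27 to 8.63. Their part in these values was not tested. Each call was lost in 4 of 5 runs that left out an array, and over the family 0 member calls were left.

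At 5 mg/kg and in the pretreated cohort, amphetamine and methamphetamine did not differ for any member in PFC or striatum by this test. The intervals were wide: a typical member's interval ran 0.279 log2 units to each side in PFC (up to 0.671) and 0.372 in striatum (up to 0.828). All genes called came to 1.45% in PFC and 1.58% in striatum at 5 mg/kg, 0% in striatum at 1.25 mg/kg and 0% in both regions of pretreated rats. At 5 mg/kg in naive PFC the nearest was Grik5, at -0.47 with an interval of -0.85 to -0.08 (adjusted p = 0.166). Those groups lie in different array sets, and with the set as a block it differed by 0.26 (adjusted p = 0.870). In pretreated striatum it was Gria1, at -0.38 with an interval of -0.69 to -0.06 (adjusted p = 0.999). In naive striatum at 1.25 mg/kg it was Grin1, at -0.44 with an interval of -0.82 to -0.05 (adjusted p = 0.870).

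Methylphenidate shares the conditioning dose of 5 mg/kg but not the infusion dose. In naive PFC, Grik5 read 9.03, 8.87 and 8.92 after methamphetamine and 7.99, 8.33 and 8.30 after methylphenidate, a difference of 0.73 ± 0.19 (adjusted p = 0.0412, where 1.85% of genes were called, 0.715% higher). These groups lie in different array sets, and saline arrays of Grik5 differed between the sets in the same way, at 9.03, 9.03 and 9.0 in set A and 8.0 and 8.59 in set B. With the set as a block the difference was 0.005 (adjusted p = 0.999). No other pair with methylphenidate called a member in either region or cohort. The share of all genes was 1.57% for methamphetamine against methylphenidate in naive striatum and 0% in the other pairs with methylphenidate.

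**Figure D5:**
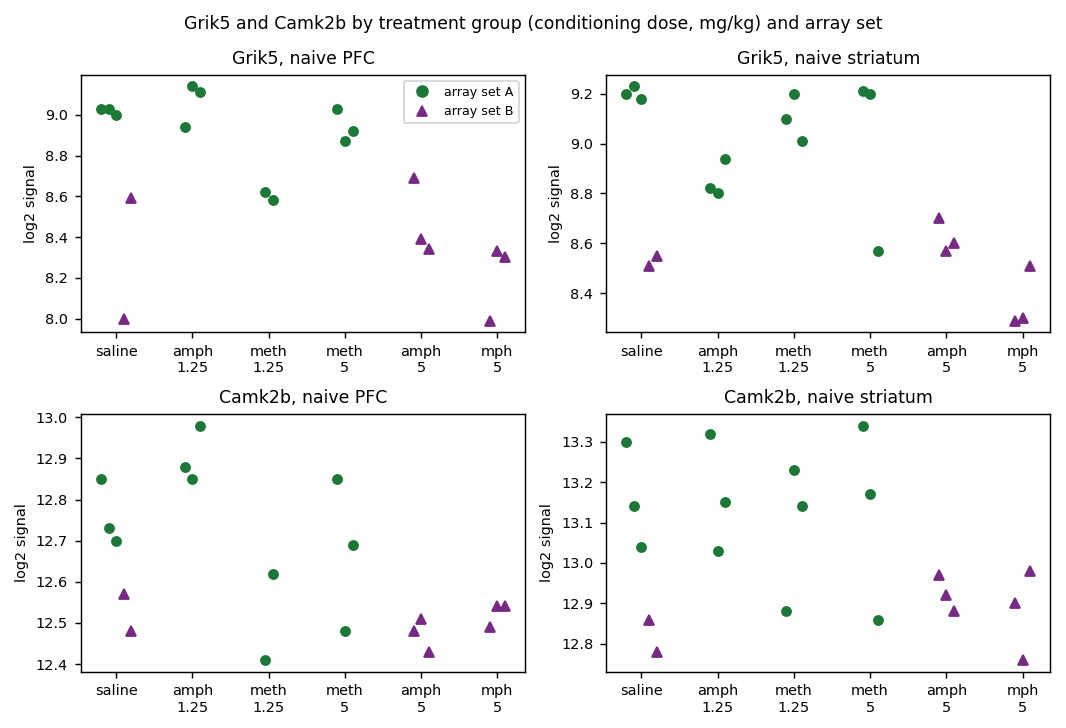
Log2 signal of each naive array for Grik5 and Camk2b by treatment group and region, with array set A as green circles and set B as purple triangles. Saline arrays of Grik5 in set A lie above those of set B in both regions.

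Grik5 was the only member called between the sets, lower in set B, at -0.73 ± 0.16 in PFC (adjusted p = 0.0102, 1 of 25, against 5.73% of all genes) and at -0.67 ± 0.17 in striatum (adjusted p = 0.0350, against 2.57%). Striatal saline arrays read 9.20, 9.23 and 9.18 in set A and 8.51 and 8.55 in set B. RNA measures moved as well: the log2 ratio of 3' to 5' Gapdh probe sets was 0.251 to 0.8 in set A and 0.584 to 1.2 in set B in PFC, and 0.458 to 1.08 and 0.917 to 1.23 in striatum. Their part in the value of Grik5 was not tested.

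The dose comparison set 5 against 1.25 mg/kg in naive rats. Camk2b fell with amphetamine in PFC, from 12.88, 12.85 and 12.98 at 1.25 mg/kg to 12.48, 12.51 and 12.43 at 5 mg/kg, with no overlap (-0.43 ± 0.10, adjusted p = 0.0142, where 7.07% of genes were called, 3.85% lower). The doses lie in different array sets, and Camk2b in saline read 12.85, 12.73 and 12.70 in set A and 12.57 and 12.48 in set B. With the set as a block it was -0.20 (adjusted p = 0.788). The 9 striatal markers read 8.39 to 9.28 at 5 mg/kg and 9.28 to 9.78 at 1.25 mg/kg, and their part was not tested. In this comparison 3 other glutamate synapse genes were higher, Neto2 (0.63), Cask (0.59) and Nlgn1 (0.53), and 4 lower, among them Cnih2 (-0.51). For methamphetamine, whose doses share a set, and for both drugs in striatum, 0 members were called. All genes called came to 0% for methamphetamine in both regions and 1.68% for amphetamine in striatum. At an unadjusted p under 0.05 there were 3 of 25 members for methamphetamine in PFC, against 15.7% of all genes. In striatum there were 0 for amphetamine, against 19.1%, and 3 for methamphetamine, against 5.15%.

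The effect of the 5 mg/kg stimulants was compared between pretreated and naive rats. In limma 0 members were called in either region, beside 0.0117% of all genes in PFC and 0.0586% in striatum. At an unadjusted p under 0.05 there were 1 of 25 members in PFC and 7 of 25 in striatum. The shares of all genes at that threshold were 4.47% and 16.8%. Shank3 in striatum had the smallest p: its stimulant effect was higher in pretreated than in naive rats by 0.77 ± 0.22 (adjusted p = 0.103). The adjusted p was 0.0560 without the array of cortical profile. With the array set as a block the difference was 0.63 (adjusted p = 0.172). In the pretreated cohort its striatal arrays read 9.88, 10.07 and 9.72 in saline and 9.84 to 10.58 with stimulants, 8 of 9 above the saline mean, while in naive rats all 15 were below. Camk2a (0.48, adjusted p = 0.118), Shank2 (0.48, adjusted p = 0.137) and Dlg3 (-0.37, adjusted p = 0.139) followed. The effect was also compared between regions, with 0 members and 0% of genes called in either cohort. There 3 of 26 members in naive rats had an unadjusted p under 0.05, against 6.34% of all genes. In pretreated rats 6 of 26 did, against 5.13% of all genes. The smallest p was that of Shank3 in pretreated rats (0.56, adjusted p = 0.947).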

How the data were processed

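RNA of PFC and striatum was measured on 1-colour Affymetrix rat arrays. Each deposited file holds 1 array's probe set signal, a linear intensity that the authors computed with MAS5 per the submitters' processing notes and that was scaled so that its trimmed mean is 500.1 to 500.2 on every array; median signals were 120 to 156. The number of arrays limits the precision. Intensities were floored at 1 (18232 values over all arrays) and put on the log2 scale, with no further normalization. Of 31099 probe sets 20832 carry 1 gene symbol and 436 several, giving 14218 genes by the brightest probe set.

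The dimmest 40% by mean (under 7.56 log2 in PFC, 7.58 in striatum, 7.56 in both) were left out, so 8530 genes were tested with limma 3.58.1 in R 4.3.3 (lmFit, eBayes with an intensity trend) by region (21 and 22 residual degrees of freedom) or over both regions (43). Tests are two-sided, the Benjamini-Hochberg adjustment ran over all tested genes, and a gene is called at an adjusted p under 0.05. Errors are standard errors of the fit. The fit was tested on simulated data. The named genes are, per comparison, the members called and, for the means over stimulants, the 5 of smallest p. Members, lists and comparisons were chosen with earlier results of these data known.

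Alternatives were quantile normalization, other filters, all probe sets, no trend, cohort arrays alone, a replicate block, the array set as a block or within it, and leaving out each array or the one of cortical profile. Arrays of PFC and striatum of the same number deviated together in naive saline rats. The correlation of deviations was 0.229 to 0.532, over 0.1 in 5 of 5 pairs. This did not hold in every pair of pretreated saline rats (0.0964 to 0.158). In both regions naive saline replicates 1 to 3 lie in set A and 4 and 5 in set B. The correlation therefore cannot tell pairing from the array set. Pairing by number is an assumption, and the fit that uses it is given only as an alternative. The fit with these pairs as a block, the tests of the array set, of the cohort difference between regions and of the family-wide adjustment were added after seeing the data.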

Additional observations from a re-analysis of the deposited data

Results flagged for a closer look

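Single arrays were searched for values far from the rest of their group in 50 groups of 5 saline values, 25 members in each region, and 2 stood out, where chance flags about 1 in 20 groups. Grik4 in naive PFC saline replicate 2 read 8.122, a little above the 7.957 to 7.985 of the other 4. Grm5 in naive striatal saline replicate 3 read 10.16, below the 10.88 to 11.17 of the others. This is the array that makes Grm5 overlap between the regions.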

How the results depend on the processing

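Of 656 values of named members under another setting, 618 kept their direction and their side of the threshold, 32 were no longer called, 4 became called and 2 changed sign, both in the mean of stimulants in naive PFC within array set B alone, Dlg4 at 0.008191 and Gria1 at -0.09694. Neither had been called. On leaving out single arrays the 18 regional calls in naive rats became 16 to 18, and the 14 in pretreated rats became 11 to 13. Shares of all genes are not given for these runs. In naive rats there were 10 within array set A alone (22% of all genes called) and 14 within set B (29.7%).

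Of the means of stimulants, 0 calls became 2 in pretreated striatum on the cohort's own arrays and 1 without the array of cortical profile. Leaving out single arrays gave 0 to 2 calls there, 2 without methylphenidate replicate 3, and 0 to 0 in naive PFC, naive striatum and pretreated PFC. The 2 calls against saline became 1 without a filter, with all probe sets, without a trend or over the family, and 4 without the array of cortical profile. Leaving out single arrays gave 0 (without methamphetamine 1.25 mg/kg replicate 2 in naive PFC) to 5 (without methamphetamine 5 mg/kg replicate 2 in naive PFC, or methamphetamine 1.25 mg/kg replicate 3 in naive striatum). The 3 calls between stimulants became 0 without a filter or over the family and 1 on cohort arrays, with 1 to 6 on leaving out single arrays. The 1 call between doses became 0 with quantile normalization or the set as a block and 2 without a filter or with all probe sets, with 0 to 7 on leaving out single arrays. The highest counts of both came without methamphetamine 5 mg/kg replicate 2 in naive PFC. The stimulant effect gave 0 to 1 calls between cohorts and 0 to 0 between regions. The cause of these changes in count was not tested. Shares of all genes called are not given for the counts of this paragraph. These counts therefore cannot be read as more or fewer than over the whole array.

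Deviations of same-numbered arrays from their group means correlated at over 0.1 in 3 of 12 pairs of stimulants with saline, so within a region the numbers were not taken to pair arrays. With the replicate block across all groups the calls were 11 of 400 tests against saline (2.75%, beside 2.14% of the tests of all genes and 0.848% without the block), 2 of 100 between doses (3.63% of all), 2 of 25 for the mean in naive striatum (Grik5 and Shank3, 2.42% of all) and 3 of 50 between cohorts (Grik5, Shank2 and Shank3, 1.96% of all). It moved no other count of member calls by over 1.5 times. Pairing PFC with striatum by number as a block, an assumption added after seeing the data, gave 19 regional calls in naive rats (44% of all genes). In pretreated rats it gave 15 (30.8%).

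Groups of 2 to 5 arrays limit the precision. The 8 members near background were not tested in either region. Unlike array sets also separate amphetamine at 5 mg/kg and methylphenidate from the other groups of the naive cohort.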
